A study of Mus musculus with 3 samples.

Results

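Of the 14662 nuclei in the deposited annotation of a mouse lumbar spinal cord single-nucleus RNA-seq experiment, 1031 carried the refined label Schwann_Meningeal, and all 1031 are described here. The nuclei came from 12 mice aged 90 days, 3 of each sex and genotype. The SOD1G93A mice carried the high-copy human SOD1 transgene of the line B6.Cg-Tg(SOD1G93A)1Gur/J, a model of amyotrophic lateral sclerosis. The wild-type (WT) mice were C57BL/6J littermates without the transgene. Nuclei of each mouse were tagged with a hashtag antibody and sequenced in 3 pools (A, B and C), each with 1 mouse of every sex and genotype. Each SOD1G93A mouse could thus be set beside the WT mouse of its sex and pool. Each hashtag marked the same sex and genotype in every pool, so hashtag and genotype cannot be told apart, with or without a pool term. The transgene is not restricted to a cell type, the lumbar cord was taken as a whole, and no cell type was sorted.

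Schwann cells wrap the axons of peripheral nerves, and in the spinal cord they are met in the nerve roots outside the cord proper. Myelinating Schwann cells make peripheral myelin, which holds Pmp22 (peripheral myelin protein 22), with Prx (periaxin) needed to keep the sheath stable. The meninges are the membranes that enclose the cord, and their fibroblasts make collagens and small proteoglycans such as Dcn (decorin). After nerve injury, Schwann cells leave the myelinating state and switch on a repair programme, while injured neurons switch on growth genes such as Gap43, Atf3 and Sprr1a. In droplet data, a barcode with few unique molecular identifiers (UMIs, each standing for 1 captured RNA molecule) can hold a damaged nucleus, a piece of cytoplasm or RNA that was free in the suspension, so depth and mixed markers are given beside every group of genes.

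The labelled nuclei were shallow. They held 3155280 UMIs in all, with a median of 1584 per nucleus (quartiles 1041.5 and 2469.5) and 1124 genes, where nuclei labelled Neuron had a median of 12864.5 UMIs. Of the 1031 nuclei, 668 (64.8%) had fewer than 2000 UMIs, against 345 (2.53%) of the 13631 other nuclei. The label thus held 65.9% of the 1013 nuclei of the series below that depth. The deposited mitochondrial percent, the share of a nucleus's RNA from mitochondrial genes, had a median of 1.77% in the labelled nuclei and 0.173% in neurons. It was 1.22% in other nuclei under 2000 UMIs and 5.34% in ependymal nuclei. Hashtag counts did not follow the low RNA depth, with a median of 1378 in the labelled nuclei and 1427 in neurons. At the other end, 33 labelled nuclei had 10000 UMIs or more, up to 187504, and held 37.2% of the label's UMIs. Of these 33 nuclei, 8 came from WT and 25 from SOD1G93A mice, 16 of them from male SOD1G93A replicate A. No barcode sequence was shared between pools among labelled nuclei, and 1 labelled nucleus shared its barcode with a nucleus of another label in another pool. Within the whole series 15 barcodes occurred in more than 1 pool.

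Deposited clusters 8, 10 and 6 made up nearly all of the label. Cluster 8 gave 497 nuclei (98.6% of that cluster), cluster 10 gave 451 (99.8%) and cluster 6 gave 82 (13.8% of a cluster of 593). The last nucleus came from cluster 15. Cluster 8 had a median of 1111 UMIs and 91.1% of its nuclei under 2000 UMIs. Cluster 10 was deeper, with a median of 2420 UMIs and 31.7% under 2000, and held 24 of the 33 nuclei with 10000 UMIs or more. The 82 nuclei of cluster 6 had the lowest median of the 3, 916.5 UMIs, with 87.8% under 2000. Mitochondrial percent was alike in clusters 8 and 10 (medians 1.87% and 1.78%) and 1.16% in cluster 6.

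The deposited mapping onto a published spinal cord reference did not place these nuclei with Schwann or meningeal cells. It called 654 (63.4%) of them neurons, left 323 (31.3%) unlabelled and put 22 in the class VI_2. Only 2 of the 1031 were mapped to the reference class of meningeal and Schwann cells, which received 135 nuclei in the series. The median mapping score, which can reach 1, was 0.520. A second deposited annotation called 497 (48.2%) of them granulocytes, 244 dendritic cells, 98 erythrocytes and 92 monocytes. Over all 14662 nuclei of the series it called 6214 granulocytes, 1646 dendritic cells, 854 erythrocytes and 531 monocytes. Such calls were therefore not particular to the label.

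Defining Schwann and meningeal genes were at or near 0. Prx had 7 UMIs in 4 of the 1031 nuclei, Ncmap (a protein of non-compact myelin) 15 in 11 nuclei and Egr2 (the transcription factor of peripheral myelination) 2 in 2 nuclei. Dhh (the Schwann cell hedgehog ligand) and Pmp2 (peripheral myelin protein 2) had none, which allows up to 0.951 CPM (UMIs scaled to a total of 1000000), counting error only. Sox10, shared by Schwann cells and oligodendrocytes, had 62 UMIs, and Ngfr, the low-affinity neurotrophin receptor of non-myelinating and repair Schwann cells, had 4. Of the meningeal genes, Dcn had 34 UMIs in 25 nuclei and Col1a2 (a type I collagen chain) 37 in 28, Col1a1 had 3, and Slc47a1 and Igf2 had none.

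Pmp22 (chromosome 11, 63128982 to 63159547 on the plus strand of GRCm38) was the Schwann marker that these nuclei did carry. It had 327 UMIs in 221 nuclei (21.4%), 163 of them in cluster 10, 51 in cluster 8 and 7 in cluster 6. Its level over all labelled nuclei was 104 CPM, above the 54.0 CPM of endothelial nuclei, 49.0 CPM of motor neurons, 42.0 CPM of astrocytes, 24.8 CPM of oligodendrocytes and 2.82 CPM of neurons. When every nucleus was thinned to 1000 UMIs, which left out the 229 shallower labelled nuclei, Pmp22 was seen in 11.7% of labelled nuclei, 7.46% of motor neurons, 6.02% of endothelial nuclei, 4.64% of astrocytes and 0.251% of neurons. Pmp22 is not restricted to Schwann cells, and it was higher here while Prx, Dhh and Pmp2 were at or near 0.

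By lists, the summed level of 9 myelinating Schwann genes was 152 ± 64.9 CPM (mean ± SD, n = 12 mice) in the labelled nuclei and 35.7 CPM in all other nuclei, with Pmp22 giving 327 of the list's 442 UMIs. The 8 general Schwann genes summed to 380 ± 73.2 CPM against 191 CPM in other nuclei. That list was carried by S100b (672 UMIs) and Cdh19 (388 UMIs), and it stood at 821 CPM in oligodendrocytes. The 12 meningeal fibroblast genes summed to 69.4 ± 42.7 CPM, against 6120 CPM in the nuclei labelled Fibroblast and 95.5 CPM in all other nuclei. The label is therefore used below as the authors' name for a set of nuclei, not as a cell type. As the clusters were made from the same expression values, no test is given for these differences.

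Markers of neurons, oligodendrocytes and astrocytes stood far above the Schwann and meningeal lists. The 8 neuronal genes summed to 6317 ± 1298 CPM, against 3591 CPM in the nuclei labelled Neuron. The 5 motor neuron genes summed to 409 ± 183 CPM, against 485 CPM in Motor_Neuron and 15.7 CPM in Neuron. This list was carried by Slc5a7, the choline transporter of cholinergic terminals (932 UMIs), and by Prph, the peripherin intermediate filament (286 UMIs), whereas the motor neuron transcription factor Mnx1 had 7 UMIs and Isl1 had 19. The 8 oligodendrocyte genes summed to 6357 ± 1546 CPM, against 8021 CPM in oligodendrocytes. The 8 astrocyte genes summed to 2595 ± 908 CPM, against 9802 CPM in astrocytes. The other lists were lower, at 520 CPM for OPCs, 247 for microglia, 126 for blood, 108 for mural cells, 64.0 for endothelial cells, 26.0 for ependymal cells and 7.47 for border macrophages.

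**Figure D1:**
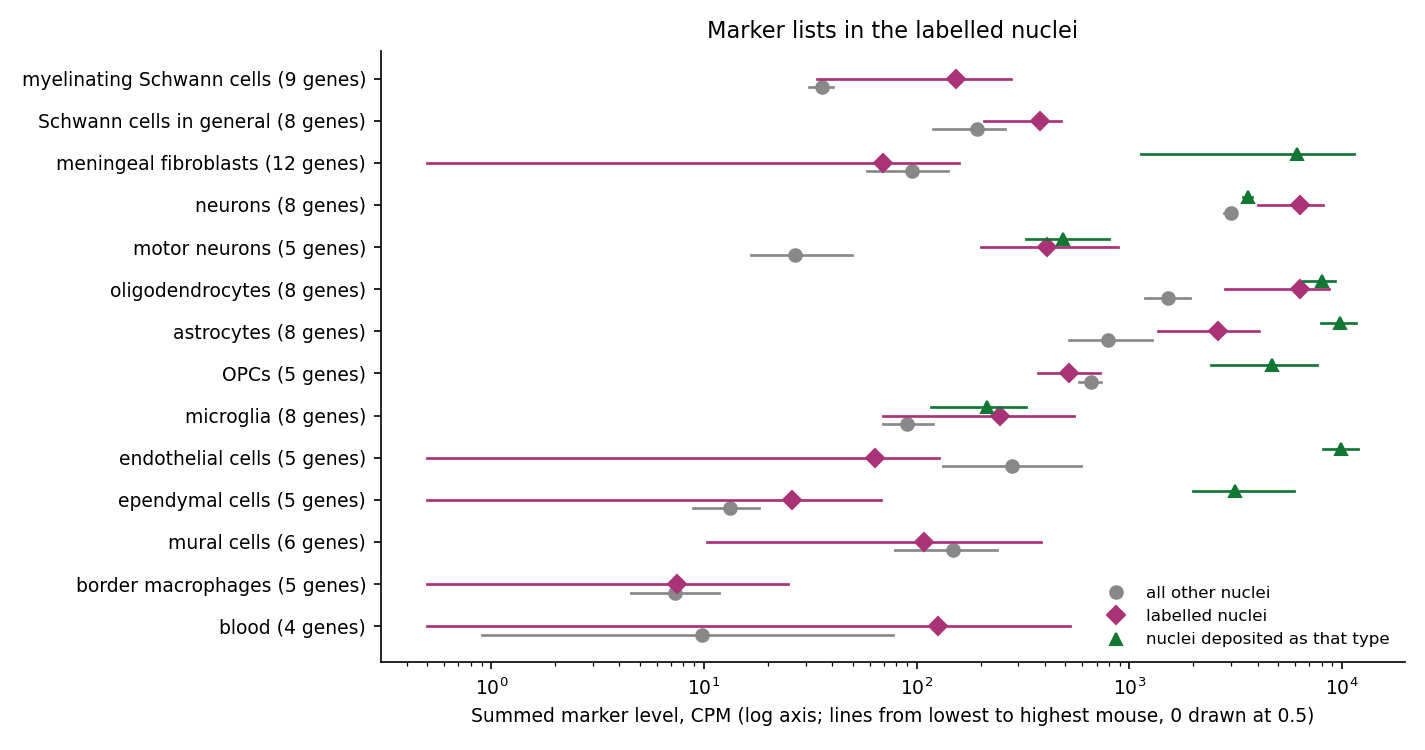
Summed level of each marker list (CPM, log axis) in the labelled nuclei, in all other nuclei and in the nuclei deposited as that type; points are means over mice and lines run from the lowest to the highest mouse. Neuronal (6317 CPM) and oligodendrocyte (6357 CPM) lists lie above the meningeal fibroblast list (69.4 CPM).

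The neuronal and glial markers met in the same nuclei. After thinning to 1000 UMIs, 85.3% of the 802 remaining labelled nuclei held at least 1 UMI from each of the neuron, oligodendrocyte and astrocyte lists. The share was 81.7% in cluster 8, 89.3% in cluster 10 and 67.6% in cluster 6. It was 5.55% in neurons, 16.7% in oligodendrocytes, 36.9% in astrocytes and 8.43% in endothelial nuclei thinned to the same depth, and 0 of 67 motor neurons had all 3. In the shallowest other types it was 33.3% (ependymal nuclei) and 31.1% (fibroblasts). Other nuclei under 2000 UMIs were not compared in this way. For single genes, Snap25 (a protein of synaptic vesicle fusion) was seen in 94.6% of thinned labelled nuclei and 49.7% of neurons. Nefl (neurofilament light chain) was seen in 73.2% of labelled nuclei, 16.4% of motor neurons, 9.27% of oligodendrocytes and 5.62% of neurons. Among the other types thinned in the same way, ependymal nuclei had the highest share with Nefl, 23.0%, so the labelled nuclei lay above all of them. Doublets of several mice had been removed by hashtag, and doublets within a mouse were not marked, so their part in this co-detection was not tested.

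Labelled nuclei also held transcripts of the other sex. Xist, the long non-coding RNA of the inactive X chromosome, stood at 86.2 CPM in labelled nuclei of males and 318 CPM in those of females, that is 27.2% of the female level. In neurons, astrocytes, oligodendrocytes and endothelial nuclei the male level was 2.90% to 3.54% of the female level. It was 25.1% in other nuclei under 2000 UMIs. Within the label it was 31.9% in cluster 8 and 16.7% in cluster 10. The summed level of 4 Y-linked genes, picked after their values were seen, stood in females at 15.0% of the male level in labelled nuclei, at 2.61% to 6.68% in those 4 types and at 17.8% in other nuclei under 2000 UMIs. The source of these transcripts was not tested. Within the label this was 16.2% in cluster 8 and 9.77% in cluster 10. Both measures were higher in the labelled nuclei than in the 4 deeper types, and nearer those of the other shallow nuclei.

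**Figure D2:**
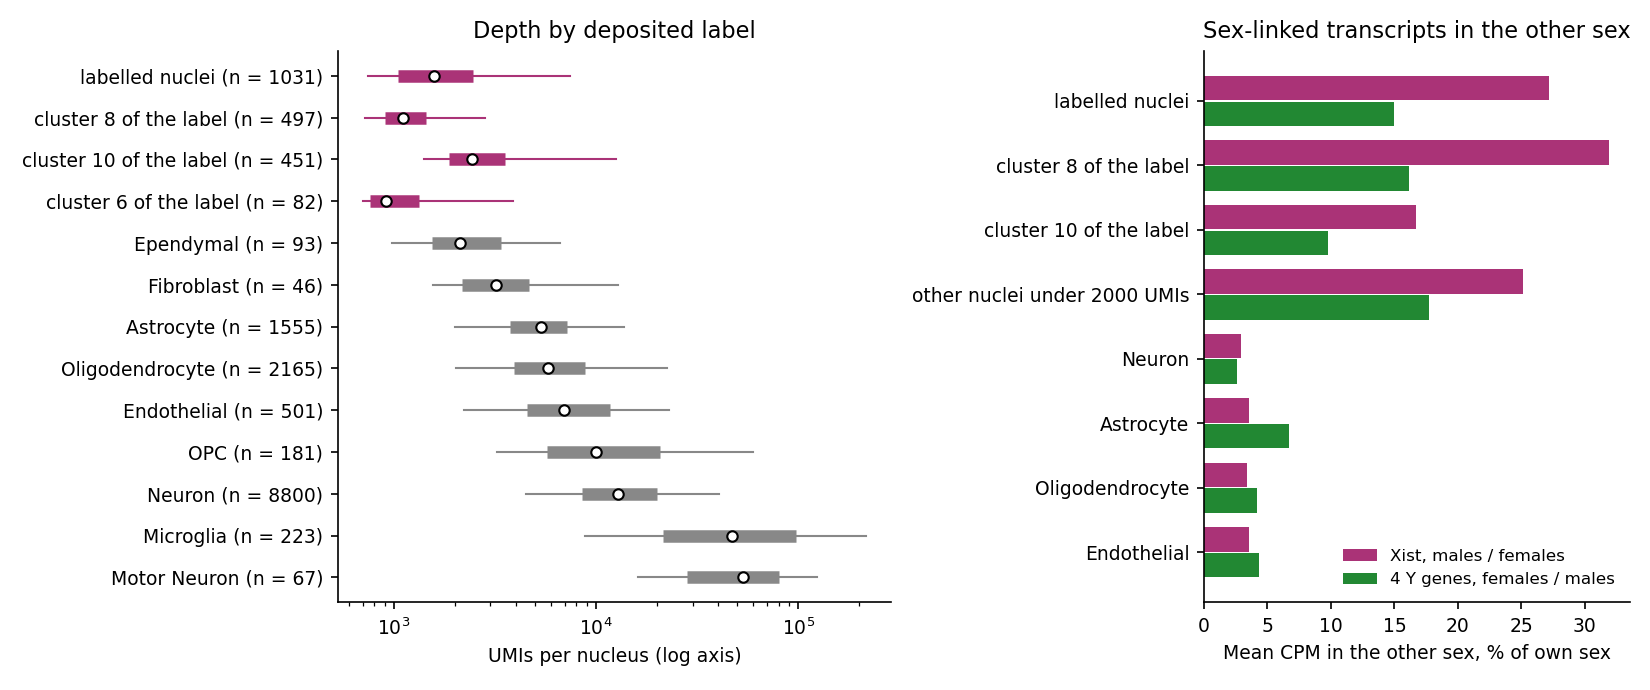
Left, UMIs per nucleus (log axis) for the labelled nuclei, their clusters and the other deposited types (points, medians; bars, quartiles; lines, percentiles 5 to 95). Right, the mean level of Xist in males and of 4 Y-linked genes in females, as a percent of the level in the other sex. The labelled nuclei lie around a median of 1584 UMIs and neurons around 12864.5, and the Xist level is 27.2% in labelled nuclei and 2.90% in neurons.

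Compared with all other nuclei, the labelled nuclei held more RNA of short genes and of genes of energy and protein synthesis. Genes spanning more than 100000 bases gave 40.4% ± 4.82 of UMIs in labelled nuclei (SD, n = 12) and 64.3% ± 2.11 in all other nuclei, with 50.9% in other nuclei under 2000 UMIs. Genes of at most 10000 bases gave 17.6% against 6.31%. Endothelial nuclei were like the label in both, at 38.5% and 17.3%. Cytosolic ribosomal protein genes summed to 8175 CPM against 1129 CPM, and nuclear-encoded respiratory chain subunits to 9361 CPM against 1733 CPM. Ferritin and metallothionein genes, which store iron and bind zinc, summed to 4983 CPM against 434 CPM. Heat-shock proteins and chaperones summed to 6462 CPM against 2295 CPM, and immediate-early genes to 411 CPM against 66.8 CPM. Conversely, 10 long synaptic adhesion genes were lower, at 29793 CPM against 54665 CPM. Nuclear long non-coding RNAs, such as Malat1, were at 41334 CPM against 43192 CPM. These list sums are set beside all other nuclei together, most of them deeper, and not beside other shallow nuclei or endothelial nuclei. They therefore do not show a trait particular to the label.

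The genes that led the label, by ratio to all other nuclei, included several of neurons. They were Sod1 (superoxide dismutase 1), Nefl, Spp1 (osteopontin), Rab3a (a synaptic vesicle GTPase), Dynll2 (a dynein light chain), Cd24a, Calm3 (calmodulin), Sprr1a, Srxn1 and Slc5a7. The ranks pool both genotypes, and SOD1G93A mice gave more labelled UMIs (a mean of 404292 per mouse against 121588 in WT). Of the 9378 Sod1 UMIs 9074 came from SOD1G93A mice, as did 272 of 274 for Sprr1a and 445 of 494 for Srxn1, and 85.8% of the Sprr1a UMIs were in 4 nuclei. Nefl, with 1386 of its 5218 UMIs from WT mice, stood at 1654 CPM in labelled nuclei and 63.4 CPM in other nuclei, and Spp1 at 418 CPM against 13.1 CPM. Cluster 8 was led by Fth1 (ferritin heavy chain, 5016 CPM against 279 CPM), Sod1, Nefl and Rab3a. Cluster 10 was led by Sod1, Nefl, Spp1 and Sprr1a. In cluster 6 the first gene, Slc25a21, had its 21 UMIs in 1 nucleus, and it was followed by Gm42418, Atp5d, Cmss1 and Nefl. No gene of the Schwann or meningeal lists was among the first 10 of the label or of any of the 3 clusters. Across 11507 genes, the summed profiles of clusters 8 and 10 had a Spearman correlation of 0.926. The label as a whole correlated at 0.808 with other nuclei under 2000 UMIs, 0.751 with astrocytes, 0.672 with neurons and 0.604 with fibroblasts. These correlations are across genes, which are not independent replicates, and they depend on each group's depth.

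Labelled nuclei took a larger share of SOD1G93A than of WT samples. Among WT mice they were 5.69%, 5.15% and 2.97% of nuclei in females of pools A, B and C and 5.59%, 0.575% and 6.70% in males. Among SOD1G93A mice they were 15.5%, 6.07% and 25.0% in females and 13.2%, 4.26% and 14.7% in males. The mean was 4.45% ± 2.26 in WT and 13.1% ± 7.46 in SOD1G93A mice (SD, n = 6 each). The SOD1G93A mouse was higher in 6 of 6 pairs of the same sex and pool, although the pool B values of SOD1G93A mice lay within the range of WT mice. The log2 fold change in abundance was 1.42, with an FDR of 0.0479 (edgeR quasi-likelihood test with pool as a term). Of the 10 deposited types 2 (20.0%) passed an FDR of 0.05, the other being Neuron at a log2 fold change of -0.28 (FDR 0.0472). The paper, from an edgeR quasi-likelihood test with batch as a term, reports no cell type with an abundance difference by genotype or sex. Its threshold was also an FDR of 0.05, and the source of the different outcome was not tested. The part of the hashtags, which differ by genotype, was not tested either.

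The call for the label lay close to its threshold. The log2 fold change was 1.55 with an FDR of 0.0931 without the pool term, 2.16 with an FDR of 0.0582 among nuclei with at least 2000 UMIs and 1.80 with an FDR of 0.0631 in a limma fit of log2 ratios. Leaving out any 1 mouse other than female WT replicate B or male WT replicate C ended the call, with a log2 fold change of 1.14 to 1.98 over the 12 fits and an FDR up to 0.154. In numbers of nuclei, WT mice gave 58 ± 28.5 and SOD1G93A mice 114 ± 55.9 labelled nuclei, higher in 5 of 6 pairs. All nuclei per mouse numbered 1474 ± 489 in WT and 970 ± 374 in SOD1G93A mice, so the share of the label reflects both its own nuclei and the others. No difference by sex (log2 fold change 0.60, FDR 0.414) or genotype by sex (0.16, FDR 0.861) passed the threshold.

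**Figure D3:**
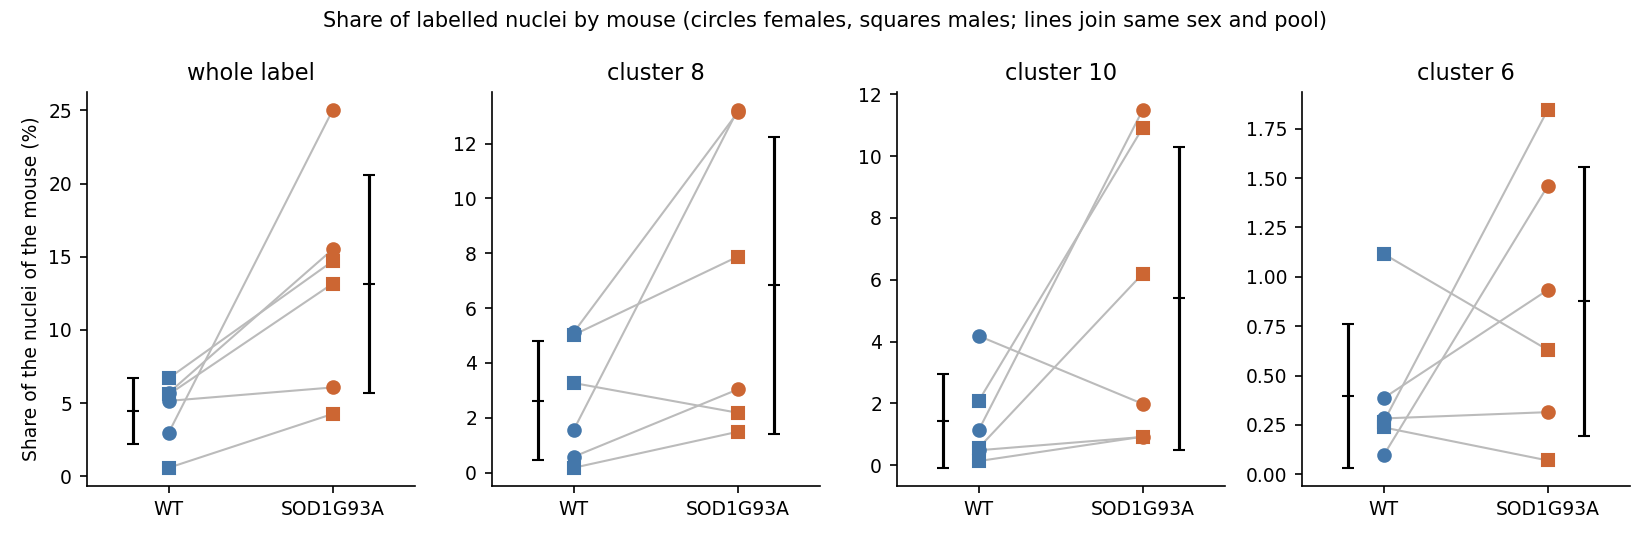
Share of each mouse's nuclei (percent) that carried the label, in all and by cluster; points are mice (circles females, squares males), lines join mice of the same sex and pool, and bars are means ± SD of 6 mice. The mean was 4.45% in WT and 13.1% in SOD1G93A mice for the whole label.

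Of the clusters, cluster 8 passed the test and cluster 10 did not. Counting every nucleus of a cluster, 5 of 61 deposited clusters (8.20%) passed an FDR of 0.05. Cluster 8 was among them, with a log2 fold change of 1.49 (FDR 0.0482), and its labelled nuclei made up 2.62% ± 2.18 of WT and 6.83% ± 5.41 of SOD1G93A nuclei. Cluster 10 had a log2 fold change of 1.69 (FDR 0.114), from 1.43% ± 1.51 to 5.40% ± 4.90, and cluster 6, most of which carried other labels, 0.70 (FDR 0.220). Both cluster 8 and cluster 10 were higher in 5 of 6 pairs. Without female WT replicate B, the log2 fold change of cluster 10 was 2.88 with an FDR of 6.65e-08, and that mouse held 65 of the cluster's labelled nuclei. Cluster 10 also passed without male WT replicate A (2.65, FDR 0.0340), male WT replicate C (1.46, FDR 0.0221) or female SOD1G93A replicate A (2.04, FDR 0.0476), and among nuclei of at least 2000 UMIs (2.15, FDR 0.0437). It did not in the other 8 fits that left out a mouse, where the FDR reached 0.463 with a log2 fold change of 1.01 without male SOD1G93A replicate A. The call for cluster 8 was lost with TMM factors (FDR 0.0623), without the pool term (FDR 0.223) and in 7 of the 12 fits that left out a mouse (FDR up to 0.118). Those mice were female WT replicate C, male WT replicates A and B, female SOD1G93A replicates B and C and male SOD1G93A replicates B and C. Other nuclei under 2000 UMIs were 2.39% of WT and 3.27% of SOD1G93A nuclei, higher in 4 of 6 pairs.

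The genotype difference in depth within the label did not pass an unadjusted p of 0.05 by medians or by means, and the lower mitochondrial share in SOD1G93A mice passed an unadjusted p of 0.05 in some settings only. The mean over mice of the median UMIs per nucleus was 1338 ± 343 in WT and 1553 ± 599 in SOD1G93A mice, a difference of 215 (exact two-sided permutation test, p = 0.545, n = 6 each). Male SOD1G93A replicate A stood apart with a median of 2717, and without it the difference was -17.5 (exact permutation p = 0.918). By means over nuclei the depth was 1912 ± 790 UMIs in WT and 3372 ± 1785 UMIs in SOD1G93A mice, higher in 4 of 6 pairs (difference 1459, exact permutation p = 0.0974). Median mitochondrial percent was 2.12 ± 0.432 in WT and 1.68 ± 0.311 in SOD1G93A mice, a difference of -0.44 percentage points (exact permutation p = 0.0671). With means over nuclei the difference was -0.50 percentage points (exact permutation p = 0.0260), lower in 6 of 6 pairs. The difference of medians also passed without male WT replicate A (-0.52, exact permutation p = 0.0476) and without female SOD1G93A replicate C (-0.52, exact permutation p = 0.0411). Within cluster 8 the difference of medians was 0.20 percentage points (exact permutation p = 0.604) and within cluster 10 it was -0.23 (exact permutation p = 0.671).

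UMIs were then summed per mouse over the labelled nuclei to compare genes by genotype. The sums ran from 14464 UMIs over 13 nuclei in male WT replicate B to 1153704 UMIs over 187 nuclei in male SOD1G93A replicate A. Levels below are CPM over the 5562 tested genes, scaled by TMMwsp factors. In male WT replicate B 1 UMI was worth 62.0 CPM, so single genes were poorly measured in that mouse.

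Only Sod1 and Gap43 were called between genotypes, 2 of 5562 genes (0.0360%) at an FDR of 0.1 in limma. At an unadjusted p of 0.05, without correction for the number of genes, 116 genes (2.09%) were higher and 143 (2.57%) lower in SOD1G93A mice. In all, 259 of the 5562 genes reached that p, a smaller share than the 0.05 that unchanged genes would give on average. By pairs, 114 genes (2.05%) were higher and 47 (0.845%) lower in 6 of 6 pairs. Every SOD1G93A mouse lay above every WT mouse in 7 genes (0.126%) and below in 5 (0.0899%). Whether the counts by pairs or by full separation exceeded chance was not tested.

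Sod1 (chromosome 16, 90220754 to 90226329, plus strand) was the largest change. In WT females of pools A, B and C it stood at 1147, 192 and 350 CPM, and in WT males at 560, 248 and 659 CPM. In SOD1G93A females it stood at 4685, 2204 and 2254 CPM, and in SOD1G93A males at 6180, 1952 and 2259 CPM. Every SOD1G93A mouse lay above every WT mouse. The log2 fold change was 2.72 (SE 0.23, FDR 9.29e-10). SOD1G93A mice carry extra copies of the human gene, and the paper describes SOD1 as overexpressed in SOD1G93A cells. Counts were made against the mouse reference mm10, so the transgene was not counted apart from mouse Sod1. The sources used here do not say whether its reads were counted under the mouse gene. The part of the transgene in this change was not tested. The log2 fold change of Sod1 in the same model was 1.29 in neurons, 1.23 in oligodendrocytes, 2.31 in astrocytes and 3.85 in motor neurons. In the labelled nuclei it was 1.72 in cluster 8 and 3.87 in cluster 10.

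Gap43 (chromosome 16, 42248442 to 42340651, minus strand), a growth cone protein that is high in regrowing axons, was higher in SOD1G93A mice. In WT females of pools A, B and C it stood at 195, 232 and 84.6 CPM, and in WT males at 171.4, 124 and 173 CPM. In SOD1G93A females it stood at 259.6, 210.4 and 164 CPM, within or just above the WT range. In SOD1G93A males it stood at 849.8, 742 and 419 CPM, above every WT mouse. The log2 fold change was 1.12 (SE 0.23, FDR 0.0571), higher in 5 of 6 pairs.

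The Gap43 difference rested on a few deep nuclei. Of its 1391 UMIs, 787 (56.6%) were in 4 nuclei and 970 (69.7%) in the nuclei with 10000 UMIs or more. Without those nuclei the log2 fold change was 0.57 (FDR 0.999), and with every nucleus thinned to at most 2000 UMIs it was 0.59 (FDR 1.00). The call was lost with edgeR (FDR 0.160), without the pool term (FDR 0.812), and without any of 7 mice, which were female WT replicates A and C, male WT replicates A and B, female SOD1G93A replicates A and C and male SOD1G93A replicate A (FDR 0.101 to 0.887). In other types, the log2 fold change of Gap43 was 2.66 in motor neurons (FDR 0.00937), 0.65 in astrocytes (FDR 0.176), 0.07 in neurons (FDR 1.00) and -0.08 in oligodendrocytes (FDR 1.00). Differences between types were not tested.

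**Figure D4:**
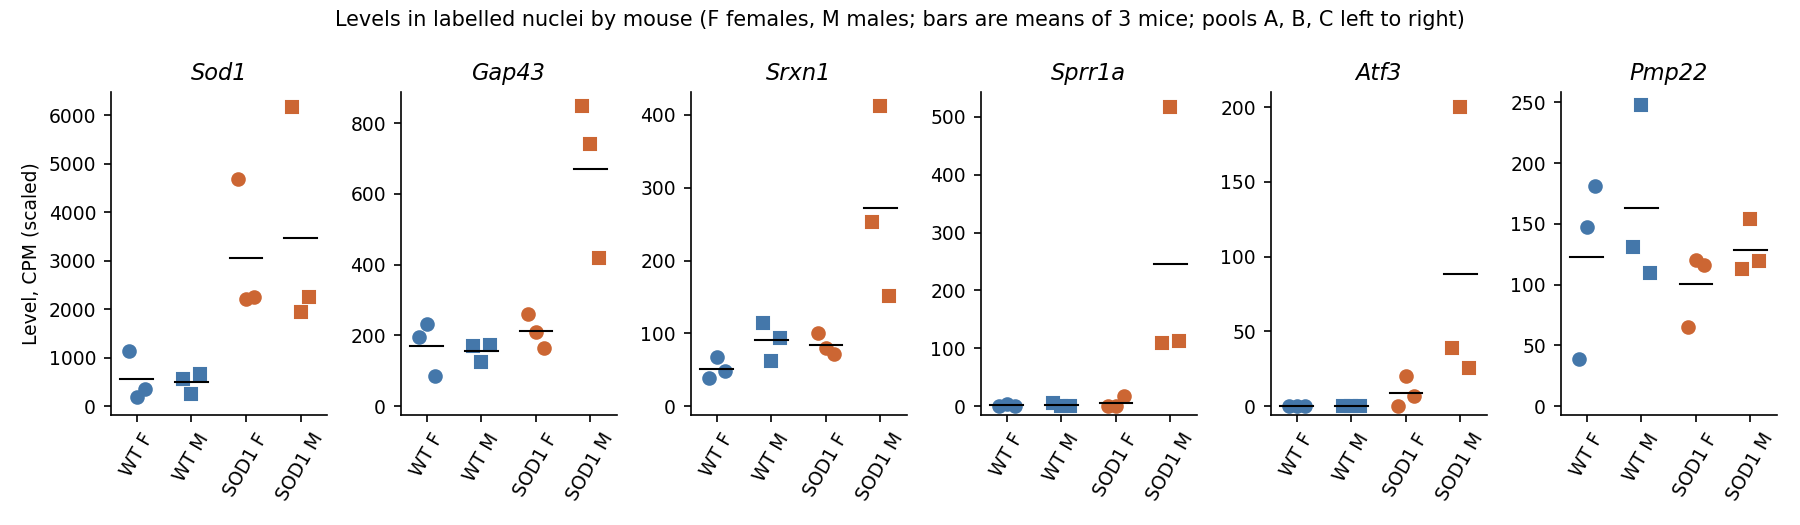
Levels (CPM) of selected genes in the labelled nuclei by mouse, in females (F) and males (M) of WT and SOD1G93A (SOD1) mice, with bars at the mean of 3 mice. Sod1 lies at 1952 CPM or more in all SOD1G93A mice and at 1147 CPM or less in WT mice, and Sprr1a reaches 517 CPM in male SOD1G93A replicate B.

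The next genes did not pass the threshold and are given as values. Of the 10 genes with the smallest p among those higher in 6 of 6 pairs, Ppm1e (a protein phosphatase) had a log2 fold change of 1.05 (SE 0.29, FDR 0.600). Its call was gained without male SOD1G93A replicate A, at 1.28 (FDR 0.0236). Ddit3, the stress response factor CHOP, had 1.56 (SE 0.47, FDR 0.675), with levels of 0 to 22.8 CPM in WT and 10.2 to 119 CPM in SOD1G93A mice. Srxn1 (sulfiredoxin, which repairs oxidised peroxiredoxins) had 0.94, Gpx1 (glutathione peroxidase) 0.91 and Odc1 (ornithine decarboxylase) 1.37. The others were Psme4 (0.80), Pappa (1.52), Trio (0.63), Ralgapa2 (0.73) and Mbd2 (0.82). The FDR of the 10 genes was 0.600 to 0.999. Pappa, Trio and Mbd2 were highest in male SOD1G93A replicate B, and Ralgapa2 in male SOD1G93A replicate C. The log2 fold change of Pappa was 0.82 without male SOD1G93A replicate B and 0.95 without female WT replicate B, and that of Ralgapa2 was 0.44 without male SOD1G93A replicate C. Without nuclei of 10000 UMIs or more, the log2 fold changes were 0.57 for Ppm1e, 0.39 for Srxn1, 0.31 for Trio and 0.41 for Ralgapa2.

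Among the 10 genes lower in 6 of 6 pairs, Zfp385a (a zinc finger protein) stood at 57.1 to 186 CPM in WT and 20.0 to 47.7 CPM in SOD1G93A mice, and Nup155 (a nuclear pore protein) at 26.7 to 72.5 CPM and 12.5 to 21.6 CPM. These genes and 2310022B05Rik did not overlap between genotypes, as 5 of the 5562 genes (0.0899%) did not in this direction. Whether that share exceeded chance was not tested. Counts were low, at 136, 65 and 123 UMIs over all mice for Zfp385a, Nup155 and 2310022B05Rik. In male WT replicate B they were 3, 1 and 1 UMIs. Zfp385a and Nup155 did not pass the threshold (log2 fold changes of -1.22 and -1.36, FDR 0.418 and 0.650). Bcl2, which restrains apoptosis, had a log2 fold change of -0.90. Further genes were Arhgef18 (-1.23), Ncald (-0.71), 2310022B05Rik (-0.93), Phkg1 (-1.09), Timp4 (-0.99) and Rnf168 (-0.89). The log2 fold change of Arhgef18 was -0.74 without female SOD1G93A replicate C, that of Timp4 was -0.63 without male SOD1G93A replicate B, and that of Ncald was -0.44 with nuclei thinned to 2000 UMIs. The FDR of the 10 genes was 0.418 to 0.858.

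In the marker and pathway lists, Gap43 was the only gene called between genotypes. In the Schwann repair and injury list 8 of 15 genes were tested and 1, Gap43, was called, where 2 of all 5562 genes (0.0360%) were. Its other members included Jun (log2 fold change 0.76), Olig1 (-0.61) and Sox2 (-0.88), each with an FDR of 0.999. Pmp22, the myelinating Schwann marker tested, had -0.24, and Bnc2, the meningeal marker tested, had 0.33. None of 11 myelin protein genes (median -0.25), 57 cytosolic ribosomal genes (median -0.06), 67 respiratory chain genes (median -0.10) or 35 heat-shock and chaperone genes (median 0.06) was called. None of the 7 astrocyte (median -0.34), 8 oligodendrocyte (median -0.22) or 8 neuronal markers (median -0.11) was called either. The median over all 5562 genes was -0.0011. Among the 5 ferritin and metallothionein genes, the ferritin light chain Ftl1 had a log2 fold change of 1.16 (SE 0.26, FDR 0.108), and was called in 4 of the 12 fits that left out a mouse. The summed neuronal list stood at 6612 ± 1249 CPM in WT and 6022 ± 1391 CPM in SOD1G93A mice, and the oligodendrocyte list at 6862 ± 997 and 5852 ± 1911 CPM. Of the sparser lists, mural cells stood at 161 ± 121 CPM in WT and 54.2 ± 35.4 CPM in SOD1G93A mice, with ranges that overlapped. Rgs5, the mural marker tested, had a log2 fold change of -1.32 (SE 0.48, FDR 0.999, unadjusted 0.0135 in limma). It was lower in 4 of 6 pairs. The blood list stood at 73.6 ± 80.2 and 179 ± 184 CPM, the microglial list at 203 ± 87.5 and 290 ± 137 CPM and border macrophages at 2.53 ± 4.56 and 12.4 ± 7.52 CPM. The part of these lists in the genotype results was not tested.

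Fewer genes could be tested within clusters, and some mice gave few nuclei. Labelled nuclei per mouse ran from 4 to 84 in cluster 8, 3 to 155 in cluster 10 and 1 to 26 in cluster 6. In cluster 6, female WT replicate A and male SOD1G93A replicate A each gave 1 nucleus. The sums of such mice are poor measures of the mouse. In cluster 8, 1 of 1841 genes (0.0543%) was called, and it was Sod1 (log2 fold change 1.72, SE 0.29, FDR 5.26e-04). In cluster 10, 2 of 3250 (0.0615%) were called, Sod1 (3.87, SE 0.30, FDR 4.48e-10) and Foxp2, a transcription factor of spinal interneurons, which was lower (-2.39, SE 0.50, FDR 0.0736). Gap43 had 1.49 (FDR 0.117) in cluster 10 and 0.43 (FDR 0.858) in cluster 8, a difference that was not tested. In the 82 labelled nuclei of cluster 6, 2 of 69 genes (2.90%) were called, Sgcz (-1.09, FDR 0.0895) and Kcnip4 (-1.07, FDR 0.0907), both long genes. Leaving out a mouse gave 1 to 9 calls in cluster 8, 1 to 18 in cluster 10 and 0 to 2 in cluster 6. The highest counts came without male WT replicate C in cluster 8 and without male SOD1G93A replicate B in cluster 10, and Foxp2 was called in 5 of the 12 fits of cluster 10. Sod1 was called in all 12 fits of both. In cluster 6, Sgcz was called in 7 of the 12 fits and Kcnip4 in 3.

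By sex, given as female minus male, 6 of 5562 genes (0.108%) were called. Of these, 3 were sex-linked, with Xist higher in females (log2 fold change 1.97, FDR 0.00400), and Ddx3y (-3.54, FDR 3.05e-05) and Uty (-2.23, FDR 0.00526) lower. The other 3 were autosomal. B3galt2, a galactosyltransferase, was higher in females (85.3 ± 19.2 CPM against 28.5 ± 17.2 CPM, log2 fold change 1.38, FDR 0.0397). Sprr1a, a cornified envelope protein that injured neurons express, was lower in females (3.58 ± 6.83 CPM against 124 ± 199.8 CPM, log2 fold change -2.92, SE 0.55, FDR 0.00959). Srxn1 was lower in females (67.7 CPM against 181 CPM, log2 fold change -1.30, SE 0.29, FDR 0.0632). All 3 were lost with edgeR (FDR 0.179, 0.999 and 0.119 for B3galt2, Sprr1a and Srxn1), with DESeq2 and without the pool term. Leaving out a mouse ended the call of B3galt2 without male WT replicates A and B, female SOD1G93A replicate A and male SOD1G93A replicate A (FDR up to 0.527). It ended that of Sprr1a without male WT replicates B and C, female SOD1G93A replicates A and B and male SOD1G93A replicate A (FDR up to 0.379), and that of Srxn1 without any mouse other than female WT replicate C, female SOD1G93A replicate C and male SOD1G93A replicate C (FDR up to 0.365). The call of Uty was lost without female WT replicate B or male WT replicate B (FDR 0.112 and 0.140). Without the nuclei of 10000 UMIs or more, Xist had a log2 fold change of 1.13 (FDR 0.999), and Ddx3y alone was called. Within cluster 8, 3 of 1841 genes (0.163%) were called by sex, Xist (1.60), Gm48099 (1.47) and Il1rapl2 (1.52), each with an FDR of 0.0662. Within cluster 10, 3 of 3250 (0.0923%) were called, Ddx3y (-3.32, FDR 0.00499), Xist (2.45, FDR 0.00846) and Sprr1a (-2.85, FDR 0.0964). Leaving out a mouse kept the cluster 8 calls in 8 or 9 of 12 fits (Il1rapl2 was tested in 10 of them) and those of cluster 10 in 10, 7 and 4 of 12. Over the whole label, no gene was called for a genotype by sex interaction (0% of 5562, with 220 at an unadjusted p of 0.05 in limma, 131 in edgeR and 100 in DESeq2, and 0 called by each). Within cluster 6, 1 of 69 genes (1.45%), Pcdh15, was called, with a genotype log2 fold change that was lower in males than in females (interaction -3.35, SE 1.01, FDR 0.0672), and it kept that call in 4 of the 12 fits that left out a mouse.

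Sprr1a and Srxn1 were lower in females and stood highest in the same mouse, male SOD1G93A replicate B. Their promoters are shown because the letters of the AP-1 motif TGACTCA (reverse complement TGAGTCA), bound by Jun and by the injury factor Atf3 with its partners, occur 2 times in each. The windows run from 250 bases before to 50 after the start (RefSeq, GRCm38.p6), are written 5′ to 3′ on the strand of the gene, and have the motif in capitals. The first is chr3:92485832-92486131 on the minus strand and the second chr2:152105274-152105573 on the plus strand.
Sprr1a: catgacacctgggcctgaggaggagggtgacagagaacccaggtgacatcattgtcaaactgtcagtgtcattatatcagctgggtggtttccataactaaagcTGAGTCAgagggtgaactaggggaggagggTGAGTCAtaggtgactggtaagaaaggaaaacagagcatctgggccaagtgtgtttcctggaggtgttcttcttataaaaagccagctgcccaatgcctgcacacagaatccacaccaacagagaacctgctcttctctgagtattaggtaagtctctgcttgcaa
Srxn1: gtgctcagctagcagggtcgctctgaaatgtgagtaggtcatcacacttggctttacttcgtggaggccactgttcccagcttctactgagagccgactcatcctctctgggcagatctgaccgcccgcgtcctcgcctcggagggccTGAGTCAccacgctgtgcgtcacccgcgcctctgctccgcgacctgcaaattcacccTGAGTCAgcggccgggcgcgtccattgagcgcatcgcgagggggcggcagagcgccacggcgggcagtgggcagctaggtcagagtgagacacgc
Of 32851 promoter windows of this length, 5.20% hold the motif on either strand and 0.222% hold 2 or more matches. Of the 27 genes named by the rule, 22 had a window and 3 held the motif, the third being Ddit3. The motif was picked after the values were seen, and the 2 genes are shown for their matches. These shares are therefore background and no test. A match of letters is a description and no measure of binding.

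In single mice, Sprr1a was highest in the 3 SOD1G93A males. It stood at 110, 517 and 112 CPM in SOD1G93A males of pools A, B and C and at 0, 0 and 17.1 CPM in SOD1G93A females. In WT mice it stood at 0, 4.46 and 0 CPM in females and at 5.71, 0 and 0 CPM in males. Srxn1 stood at 253, 413 and 152 CPM in SOD1G93A males, at 100.3, 80.1 and 71.6 CPM in SOD1G93A females and at 39.1 to 114 CPM in WT mice. By genotype, Sprr1a had a log2 fold change of 1.95 (SE 0.55, FDR 0.604) and Srxn1 0.94 (SE 0.29, FDR 0.706), and neither passed the threshold. The interaction of genotype and sex passed the threshold for neither gene.

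The Sprr1a UMIs were concentrated in a handful of nuclei, and those of Srxn1 were less so. Srxn1 had 494 UMIs in 153 nuclei, 42 of WT and 111 of SOD1G93A mice, with 51.6% of them in 4 nuclei. Sprr1a had 274 UMIs in 34 of the 1031 nuclei, 2 of WT and 32 of SOD1G93A mice, and 53 UMIs in all the other nuclei of the series. Labelled nuclei numbered 58 per WT mouse and 114 per SOD1G93A mouse on average. In all, 4 nuclei held 235 (85.8%) of the 274 UMIs. All 4 were of SOD1G93A males and of cluster 10, with 185932, 31304, 46454 and 40739 UMIs, and they came from replicates B, A, A and C. Their Sprr1a counts were 119, 47, 44 and 25 UMIs, and Gap43 counts 100, 236, 396 and 55 UMIs. Atf3, the transcription factor of injured neurons, had 42, 2, 30 and 7 UMIs in them. Over the label Atf3 had 99 UMIs in 16 nuclei, all of SOD1G93A mice. The nuclear RNA Malat1 made up 6.43%, 0.0831%, 0.116% and 1.81% of UMIs in the 4 nuclei, where the median over the label was 3.39%. Nefl had 269, 254, 273 and 20 UMIs in them, and Slc5a7 134, 6, 12 and 0. The replicate B nucleus gave 119 of that mouse's 124 Sprr1a UMIs and 46 of the mouse's 99 Srxn1 UMIs.

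**Figure D5:**
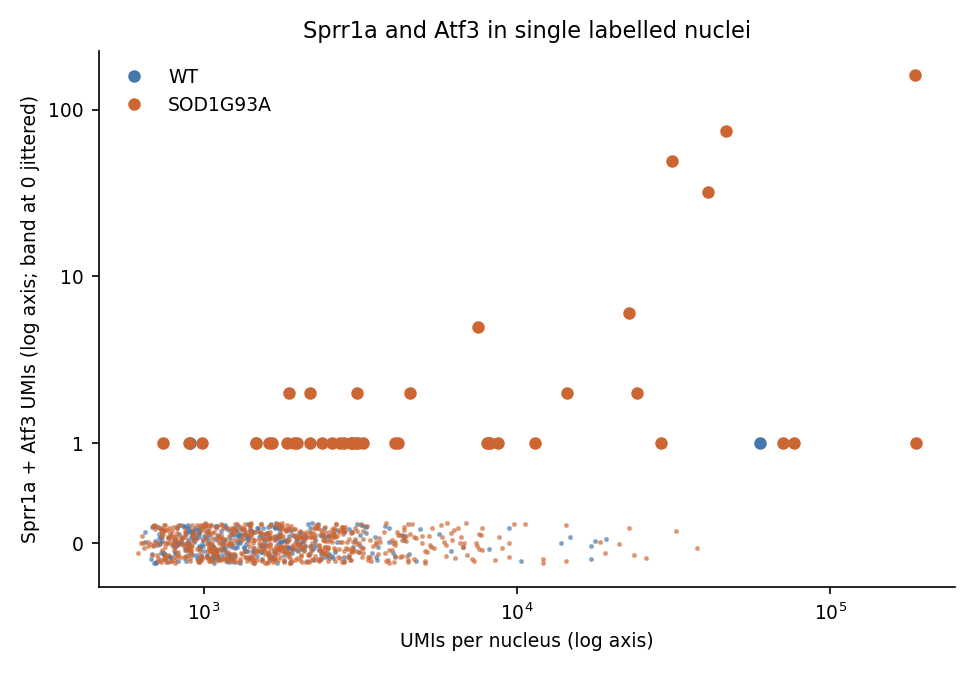
Each labelled nucleus by its UMIs (log axis) and its summed Sprr1a and Atf3 UMIs (log axis), coloured by genotype, with nuclei at 0 in a jittered band at the bottom. The 4 nuclei with the most Sprr1a, from male SOD1G93A mice, have 31304 to 185932 UMIs.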

How the data were processed

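Nuclei of 12 mice (3 per sex and genotype) had been sequenced in 3 pools. The authors made the deposited UMI count table with Cell Ranger 3.1 against a pre-mRNA mm10 reference, filtered nuclei on genes and mitochondrial share, removed hashtag doublets and assigned clusters and types. The deposited table of nuclei gives mitochondrial percent, a mapping score and the hashtag margin. The authors assigned nuclei to mice from the hashtag counts, and their assignment was used as given. UMIs were summed per mouse over the labelled nuclei. Genes were kept by filterByExpr (minimum count 10, 5562 genes) and fitted with limma 3.58.1 (voom, TMMwsp factors, pool as a term, robust eBayes, FDR 0.1). Shares were fitted with edgeR 4.0.16 (quasi-likelihood test, FDR 0.05), and depth and mitochondrial percent with exact permutation of 6 against 6 mice, whose smallest p is 0.00216. P-values were adjusted by Benjamini-Hochberg. List levels are CPM over all UMIs. Marker lists were those of the design, and named genes were the called genes and the 10 higher and 10 lower genes with the smallest p moving alike in 6 of 6 pairs, some of which are not reported here. Genes shown from single nuclei, the Y-linked genes and the promoter motif were picked after their values were seen. Members and lists were chosen with earlier results of these data known. Alternatives were edgeR, DESeq2 1.42.0, other factors and filters, no pool term, depth limits and leaving out each mouse. Pool entered the model because the labels give it as a batch. Deviations of paired mice from their group means correlated at -0.0317 to 0.311. Checks on simulated counts preceded the fits. Gene positions are those of GENCODE on GRCm38, and 30519 of 31040 genes were matched by symbol.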

Additional observations from a re-analysis of the deposited data

Results flagged for a closer look

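In 60 groups of 6 mice tested for a mouse far from the others, 11 had such a mouse. The cutoff flags about 1 in 20 groups where values are normally distributed. Most groups here were levels of genes picked by their differences, with both sexes together. That rate therefore cannot be applied to these 60 groups. Among WT mice, the share of nuclei in cluster 6 was 1.12% in male WT replicate C against 0.0965% to 0.386% in the others. Ppm1e stood at 0 CPM and Timp4 at 248 CPM in male WT replicate B, which held 13 labelled nuclei, and 2310022B05Rik at 91.4 CPM in male WT replicate A. Among SOD1G93A mice, median UMIs per nucleus was 2717 in male SOD1G93A replicate A. In male SOD1G93A replicate B, Sprr1a stood at 517 CPM, Pappa at 546 CPM, Trio at 463 CPM, Mbd2 at 175 CPM and Ncald at 50.0 CPM, and 185932 of that mouse's 305631 labelled UMIs came from 1 nucleus. Ralgapa2 stood at 725 CPM in male SOD1G93A replicate C. Within the 82 labelled nuclei of cluster 6, the genotype change of Pcdh15 differed between the sexes (males minus females, -3.35 on the log2 scale, FDR 0.0672 in limma). That call was kept in 4 of 12 fits that left out a mouse, and mice gave 1 to 26 of these nuclei each.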

How the results depend on the processing

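The pool term was the replicate block of the fits of genes and shares. Median UMIs and mitochondrial percent were compared without it, and flipping signs within the 6 pairs of one sex and pool gave exact permutation p-values of 0.500 and 0.219. The share of labelled nuclei had a log2 fold change of 1.42 and was 1.55 without the block (FDR 0.0931), 2.16 among nuclei of at least 2000 UMIs and 1.80 with limma, each no longer past the threshold. Leaving out a mouse gave 1.14 to 1.98. The number of deposited clusters called was 5, and 0 with TMM factors, 0 with no replicate block, 3 among nuclei of at least 2000 UMIs and 0 to 8 leaving out a mouse. Genes called by genotype numbered 2, and 3 with no filter beyond 1 UMI (Phf7 gained), 1 (Sod1) with edgeR, with no replicate block, without nuclei of 10000 UMIs or more and with nuclei thinned to 2000 UMIs (the last pair of settings was chosen after seeing the data), and 1 to 7 leaving out a mouse. Genes called by sex numbered 6, and 9 with no filter beyond 1 UMI, 7 with nuclei of at least 1000 UMIs, 4 with DESeq2, 3 with edgeR and with no replicate block, 1 with a minimum count of 30, 1 without the deep nuclei, 1 with thinned nuclei and 2 to 18 leaving out a mouse. Interaction calls numbered 0, and 0 to 5 leaving out a mouse. Within clusters, leaving out a mouse gave 1 to 9 calls (cluster 8), 1 to 18 (cluster 10) and 0 to 2 (cluster 6). The genotype difference in median UMIs, 215, ranged from -17.5 to 318 leaving out a mouse and reversed without male SOD1G93A replicate A (-17.5). That in mitochondrial percent, -0.44, was -0.50 from means over nuclei and -0.52 to -0.29 leaving out a mouse. The cause of these changes was not tested. Sod1 kept its direction and its call in every setting run, and no named gene reversed. Nuclei of about 1584 UMIs limit the genes that can be tested, and male WT replicate B, with 14464 UMIs, limits the WT spread.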
